A study of Mus musculus with 14 samples.

Results

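The 10 genes described here encode proteins that sense, bind or degrade nucleic acids in the cell. They were the 3 RIG-I-like RNA receptors Ddx58, Ifih1 and Dhx58, the DNA sensor Mb21d1, the Z-form nucleic acid sensor Zbp1, the DNA exonuclease Trex1, and 4 genes of the p200 family, Ifi203, Ifi204, Mnda and AI607873. They were chosen by symbol. All 10 were among the 13866 genes of the count table and all 10 were among the 11852 genes with enough counts to be tested.

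RNA from the brain of each of 14 mice, 19 days of age, was sequenced by bulk MARSseq, which counts transcript 3' ends, so that counts of a gene do not grow with its length. WT + PBS (3 libraries) were C57BL/6JOlaHsd mice injected with phosphate buffered saline (PBS). WT + CBE (3 libraries) were mice of that strain injected with conduritol B-epoxide (CBE) at 100 mg/kg. Per the study's methods, injections were intraperitoneal, given daily and begun while the mice were pups. CBE irreversibly inhibits acid beta-glucosidase, the enzyme that is deficient in Gaucher disease. MyTrMaSt + PBS (3 libraries) and MyTrMaSt + CBE (5 libraries) were MyTrMaSt null mice given the same injections. These mice carry null alleles in every cell of 4 adaptor genes, Mavs, Tmem173 (which encodes STING), Myd88 and Ticam1 (which encodes TRIF), the adaptors through which Toll-like receptors, RIG-I-like receptors and cyclic dinucleotides signal. How far their background matched that of the WT mice was not given in the sources used here, so the null alleles and any other difference between the lines cannot be told apart. The comparisons ask which of these sensor genes rose with CBE in the brain, and whether they also rose where the adaptors were missing.

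RNA of viruses, and RNA or DNA of the cell itself that reaches the cytosol, is bound by these sensors. RIG-I-like receptors signal through MAVS and Mb21d1 signals through STING to the transcription of type I interferon. Many of the sensor genes are in turn interferon-stimulated genes, transcribed when the type I interferon receptor activates its transcription factors, and in the brain they are best known from microglia and other glia during viral infection and in interferon-driven disease.

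Promoters are shown first, because the 10 genes are commonly listed as interferon-stimulated and the motif that these factors bind can be looked for directly. A promoter window of RefSeq (GRCm38.p6, 250 bases before to 50 after the start site) was at hand for Ddx58, Ifih1, Mb21d1 (Cgas in RefSeq), Trex1, Ifi203, Mnda (Ifi211) and AI607873 (Ifi207), which is 7 of 10 genes, and not for Dhx58, Zbp1 and Ifi204. The letters GAAA, NN (any bases) and GAAA in a row, the core of the interferon-stimulated response element, were searched on both strands and were found for 5 of the 7 genes. Of all 27025 genes with a window, 3.99% held the letters in at least 1 window, which is 3.44% of 32851 windows. The 3 p200 promoters are printed from 250 bases before the start site up to it, on the minus strand and 5' to 3', with the match in capitals. They lie at chr1:173913047-173913296 (Mnda), chr1:173741810-173742059 (AI607873) and chr1:173942493-173942742 (Ifi203).
Mnda: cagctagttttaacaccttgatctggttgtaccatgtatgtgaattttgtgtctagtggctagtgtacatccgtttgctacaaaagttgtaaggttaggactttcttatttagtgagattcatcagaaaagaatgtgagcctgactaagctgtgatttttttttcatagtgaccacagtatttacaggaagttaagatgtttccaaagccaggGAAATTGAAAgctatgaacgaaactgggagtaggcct
AI607873: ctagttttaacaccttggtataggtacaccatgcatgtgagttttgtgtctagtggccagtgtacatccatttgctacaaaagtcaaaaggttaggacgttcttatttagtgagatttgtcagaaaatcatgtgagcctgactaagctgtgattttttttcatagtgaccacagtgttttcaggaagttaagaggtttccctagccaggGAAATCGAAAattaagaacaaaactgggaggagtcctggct
Ifi203: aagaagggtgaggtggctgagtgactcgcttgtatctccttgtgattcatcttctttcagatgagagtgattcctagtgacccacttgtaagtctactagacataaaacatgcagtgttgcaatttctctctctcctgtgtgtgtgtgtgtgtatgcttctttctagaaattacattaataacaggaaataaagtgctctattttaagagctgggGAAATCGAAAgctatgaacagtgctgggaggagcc
The match began 37 bases before the start site in Mnda, 41 bases before it in AI607873 and 35 bases before it in Ifi203. The whole 300 base windows of Mnda and AI607873 were 85.9% identical in a global alignment, against 56.5% for Mnda and Ifi203 and 54.3% for AI607873 and Ifi203. Ifi203 has another RefSeq start site, whose window held no match. For AI607873 and for both windows of Ifi203, the bases after the start site were not found in a GENCODE transcript of the gene, so that these distances hold for the RefSeq start sites only.

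In Ddx58 and Ifih1 the letters lay just after the start site, from position 3 on the opposite strand in Ddx58 and from position 33 on the gene's own strand in Ifih1. For these, 30 bases around the match are shown in the same way, from chr4:40239804-40239833 (Ddx58) and chr2:62646206-62646235 (Ifih1), both on the minus strand.
Ddx58: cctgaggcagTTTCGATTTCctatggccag
Ifih1: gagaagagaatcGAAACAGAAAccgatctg
Neither Mb21d1 nor Trex1 held the letters. The promoter of Mb21d1 is shown as an example of a window without them, from chr9:78443238-78443487 on the minus strand.
Mb21d1: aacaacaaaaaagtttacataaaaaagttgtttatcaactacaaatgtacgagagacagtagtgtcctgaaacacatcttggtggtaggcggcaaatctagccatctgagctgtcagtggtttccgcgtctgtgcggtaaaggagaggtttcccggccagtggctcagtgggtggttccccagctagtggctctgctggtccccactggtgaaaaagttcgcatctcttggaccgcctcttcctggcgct
The letters TTCNNNGAA, the gamma-activated site, were searched on both strands too. They were in none of the windows of the 7 genes and in a window of 9.55% of all genes. These matches describe the letters of the windows only.

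Library totals ran from 1290616 to 3704691 counts, and the median count of a tested gene from 29 to 107, so genes with under about 10 counts, as most of the 10 were after PBS, carry a large counting error. WT + PBS replicate 1 had the lowest total and stood apart from its group, with a mean correlation of 0.883 to the other WT + PBS libraries, whereas in the other 3 groups the libraries' mean correlations were 0.959 to 0.980. Xist, an RNA of the inactive X chromosome, had 0 counts in every WT + PBS library, 1 to 47 in WT + CBE, and in MyTrMaSt libraries 32 to 46 after PBS and 0 to 39 after CBE. The sex of the mice, which was not given in the sources used here, may thus differ between the groups. The deleted genes still gave counts in MyTrMaSt libraries: 9 to 22 for Myd88, against 19 to 71 in WT libraries, 10 to 26 for Ticam1 in both lines, and 7 to 30 for Mavs, against 11 to 31. Tmem173 was higher in each MyTrMaSt + PBS library (18 to 20 counts) than in each WT + PBS library (1 to 9; log2 difference 1.62 ± 0.394, adjusted p = 0.101, edgeR), with 17 to 34 against 10 to 30 counts after CBE. Counts of transcript 3' ends do not show whether the deleted part of a gene was read. Each replicate is taken as 1 library of 1 mouse, of which the labels say no more, so p-values measure the spread between these libraries.

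In WT mice, 9 of the 10 genes rose with CBE, all but Mb21d1, at a Benjamini-Hochberg adjusted p below 0.05 and at least 2-fold by the quasi-likelihood test of edgeR, against 5.2% of all tested genes called higher. With the PBS groups taken alone, 1 of the 10 genes, Trex1, passed the filter on low counts, so that most were tested because of their level after CBE, and the counts of calls and medians describe the 10 genes without testing them as a list. The smallest called increase was about 2-fold, in Trex1. Ifi204, Zbp1, Mnda and AI607873 had 0 to 5 counts over all WT + PBS libraries, and the order of their increases cannot be told. The median log2 fold change of the 10 genes was 3.34, and that of all tested genes -0.018. For 9 of the 10 genes every WT + CBE library was above every WT + PBS library, which held for 15.1% of all tested genes. Ddx58 was the gene whose groups overlapped, and Mb21d1 was separated without being called. Without WT + PBS replicate 1, 8 genes were called, and with the Xist level as a covariate 6 were. The call lost without that library was Ifi203 (log2 fold change 1.81). Those lost with the Xist level were Ddx58 (1.12, adjusted p = 0.492), Trex1 (0.63, adjusted p = 0.254) and Ifi203 (1.40, adjusted p = 0.414, edgeR). Xist had 0 counts in every WT + PBS library and 1 to 47 in WT + CBE, so this covariate overlaps the CBE difference. Whether sex had a part in these calls was not tested.

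**Figure D1:**
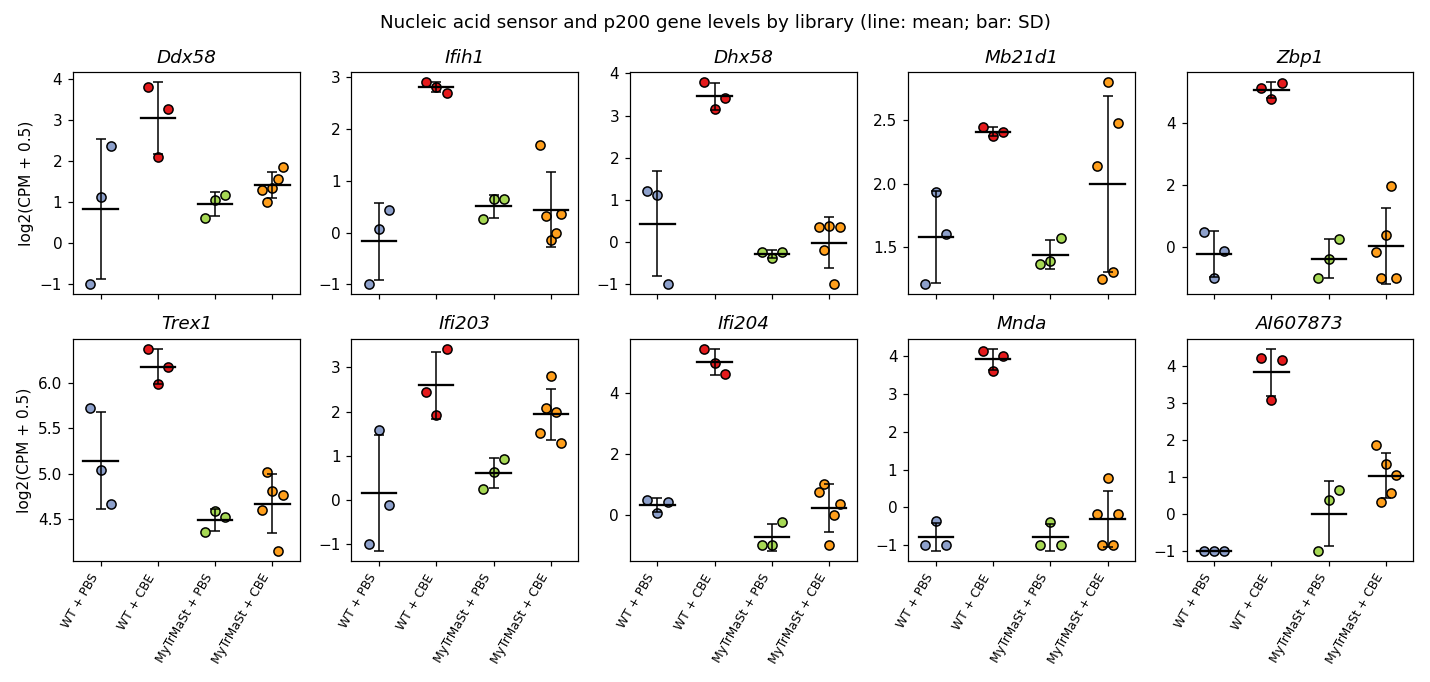
Level of each of the 10 genes as log2(CPM + 0.5), where CPM is counts scaled to 1000000 per library on library sizes scaled by TMM, in the 14 libraries (points) of 4 groups, with each group's mean (line) and SD (bar). The 3 WT + CBE libraries sit above every other library for Ifih1, Dhx58, Zbp1, Trex1, Ifi204, Mnda and AI607873, while for Mb21d1 and Ifi203 the MyTrMaSt + CBE libraries reach into their range.

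The RNA receptors come first. Ddx58 (chr4:40203773-40239828, mm10, minus strand, as are all 10 genes) encodes RIG-I, which binds short double-stranded RNA with triphosphate ends. It was counted 0, 6 and 11 times in the WT + PBS libraries and 46, 8 and 15 times in the WT + CBE libraries, or 0, 1.66 and 4.64 against 13.4, 3.75 and 9.04 CPM. The groups overlapped, since WT + CBE replicate 2 lay below WT + PBS replicate 3. On the log2 scale it rose by 1.91 ± 0.531 (adjusted p = 0.0271, edgeR), where ± gives the SE of a log2 difference, as it does in what follows. The call did not hold without WT + PBS replicate 2 (log2 fold change 1.59), without WT + CBE replicate 1 (1.37) or without WT + CBE replicate 3 (1.92), nor with the WT groups fitted alone (1.92, adjusted p = 0.197, edgeR) or with the Xist covariate given above. Over the 14 leave-one-out fits the log2 fold change of Ddx58 ran from 1.37 to 2.84.

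Ifih1 (chr2:62595798-62646255) encodes MDA5, a receptor of long double-stranded RNA. It had 0, 2 and 2 counts after PBS and 24, 14 and 10 after CBE in WT mice, or 0, 0.553 and 0.844 CPM against 6.98, 6.57 and 6.03 CPM. The 3 WT + CBE libraries were close to each other and far above the WT + PBS libraries. The increase was 3.45 ± 0.579 on the log2 scale (adjusted p = 0.000501, edgeR).

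Dhx58 (chr11:100694884-100704271) encodes LGP2, a receptor of this family without the signalling domains of the others, which modulates them. WT + PBS libraries had 2, 6 and 0 counts and WT + CBE libraries 46, 18 and 17, or 1.80, 1.66 and 0 CPM against 13.4, 8.45 and 10.2 CPM. The groups did not overlap, and the gene rose by 3.23 ± 0.504 on the log2 scale (adjusted p = 0.000236, edgeR). Of the exonic bases of Dhx58, 4.31% overlap the antisense gene Dhx58os, and whether strand was used in counting was not given in the sources used here.

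Among the DNA sensors, Mb21d1 (chr9:78430526-78443237) encodes cGAS, which makes the cyclic dinucleotide that activates STING. In WT mice it had 2, 12 and 6 counts after PBS and 17, 10 and 8 after CBE, or 1.80, 3.32 and 2.53 CPM against 4.95, 4.69 and 4.82 CPM. All WT + CBE libraries were above all WT + PBS libraries, with the smallest increase of the 10 genes. The log2 difference was 0.79 ± 0.440 (adjusted p = 0.287, edgeR), which did not pass the test. With 2 to 17 counts per library, this does not show that Mb21d1 was unchanged. By PCR, the study reported significant increases of cGAS, Rig-I and Mda5 RNA with this CBE dose in brains of slightly younger mice. A pseudogene, Gm8093, overlaps 4.87% of the exonic bases of Mb21d1 on the opposite strand.

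Zbp1 (chr2:173206612-173218923) encodes a sensor of Z-form nucleic acids that can start necroptosis. It was close to absent after PBS, with 1, 0 and 1 counts in WT + PBS, and had 120, 58 and 64 counts in WT + CBE, which is 34.9, 27.2 and 38.6 CPM. Counts pooled over each group and scaled to its pooled library size were 119-fold apart. The 95% counting interval was 32.5 to 987 (exact, counting error only), and the adjusted p was 4.1e-06 (edgeR). No alternative setting ended the call.

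Trex1 (chr9:109057933-109059734) encodes the exonuclease that degrades DNA in the cytosol and thereby limits cGAS. It was the most abundant of the 10 genes in every library, with 58, 117 and 59 counts after PBS and 284, 134 and 119 after CBE in WT mice, or 52.3, 32.3 and 24.9 CPM against 82.6, 62.9 and 71.7 CPM. The groups did not overlap, although WT + PBS replicate 1, the library that stood apart, came closest to WT + CBE. Its log2 increase of 1.05 ± 0.242 (adjusted p = 0.0084, edgeR) was just over the 2-fold threshold and no longer passed without WT + PBS replicate 2 (0.99), WT + PBS replicate 3 (0.84) or WT + CBE replicate 1 (0.96). It did not pass with the WT groups fitted alone (1.05, adjusted p = 0.0903, edgeR) or with the Xist covariate either. All exonic bases of Trex1 (100%) are also exonic in Atrip on the same strand, so counts of Trex1 and Atrip depend on how the counting assigned shared reads.

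The p200 genes lie near each other on chromosome 1 and encode proteins with a DNA-binding HIN domain. Ifi204 (chr1:173747293-173766943), the p200 gene with the most counts in WT + CBE, had in WT mice 1, 2 and 2 counts after PBS and 149, 66 and 40 after CBE, or 0.902, 0.553 and 0.844 CPM against 43.4, 31.0 and 24.1 CPM. The WT + CBE libraries were all far above the WT + PBS libraries. On the log2 scale it rose by 5.47 ± 0.482 (adjusted p = 2.9e-07, edgeR).

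Mnda (chr1:173896345-173913046, Ifi211 in the annotation) had 0, 1 and 0 counts after PBS and 59, 25 and 26 after CBE in WT mice, which is 11.7 to 17.2 CPM. Counts pooled over each group and scaled to its pooled library size were 108-fold apart, with a 95% counting interval of 19.0 to 4305. The adjusted p was 3.36e-06 (edgeR). Of the 50 base words in the last 500 bases of its transcripts, 77.4% also occur in Ifi205 or Mndal, so reads of these genes could be split between them.

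AI607873 (chr1:173723427-173741747, Ifi207 in the annotation) had 0 counts in all WT + PBS libraries and 62, 17 and 29 in WT + CBE, or 18.04, 7.98 and 17.5 CPM. Set against 3 counts over the 3 WT + PBS libraries, it was at least 35.4-fold higher after CBE (adjusted p = 2.19e-05, edgeR).

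Ifi203 (chr1:173920407-173942672) rose least of the 4. In WT mice it had 0, 9 and 1 counts after PBS and 17, 7 and 17 after CBE, or 0, 2.49 and 0.422 CPM against 4.95, 3.29 and 10.2 CPM. The groups did not overlap, but WT + CBE replicate 2 and WT + PBS replicate 2 were close. It rose by 2.07 ± 0.636 on the log2 scale (adjusted p = 0.0445, edgeR). This call was the least stable of the 9, since it was lost without each of WT + PBS replicates 1 and 3, WT + CBE replicates 1 and 3, MyTrMaSt + PBS replicates 1 to 3 and MyTrMaSt + CBE replicates 1, 2 and 4, with log2 fold changes of 1.63 to 2.24. Without MyTrMaSt + CBE replicate 3 the gene did not pass the filter on low counts. Over the 13 leave-one-out fits that tested it, the log2 fold change ran from 1.63 to 4.14.

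In MyTrMaSt mice, none of the 10 genes was called with CBE (0 of 10 by edgeR, DESeq2 and limma voom), against 3.23% of all tested genes called higher. With the MyTrMaSt groups fitted alone only 2 of the 10, Mb21d1 and Trex1, passed the filter on low counts, and Dhx58, Zbp1, Ifi204 and Mnda had 1 to 3 counts over all MyTrMaSt + PBS libraries. Few counts after PBS did not by themselves prevent a call, since in WT mice Zbp1, Mnda and AI607873 were called with 0 to 2 counts over the PBS libraries, but small changes of such genes were hardly detectable at this depth. At an unadjusted p below 0.05, Ifi203 and Ifi204 were higher (2 of 10), and 13.6% of all tested genes were. All 10 log2 fold changes were above 0 in this fit, with a median of 1.03, although that of Ifih1 was below 0 by limma voom and those of Ifih1 and Zbp1 without 1 library each, and the median of all tested genes was 0.0052. The comparison with WT mice used other libraries of another line, and a gene called in WT and not in MyTrMaSt was not thereby shown to differ.

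**Figure D2:**
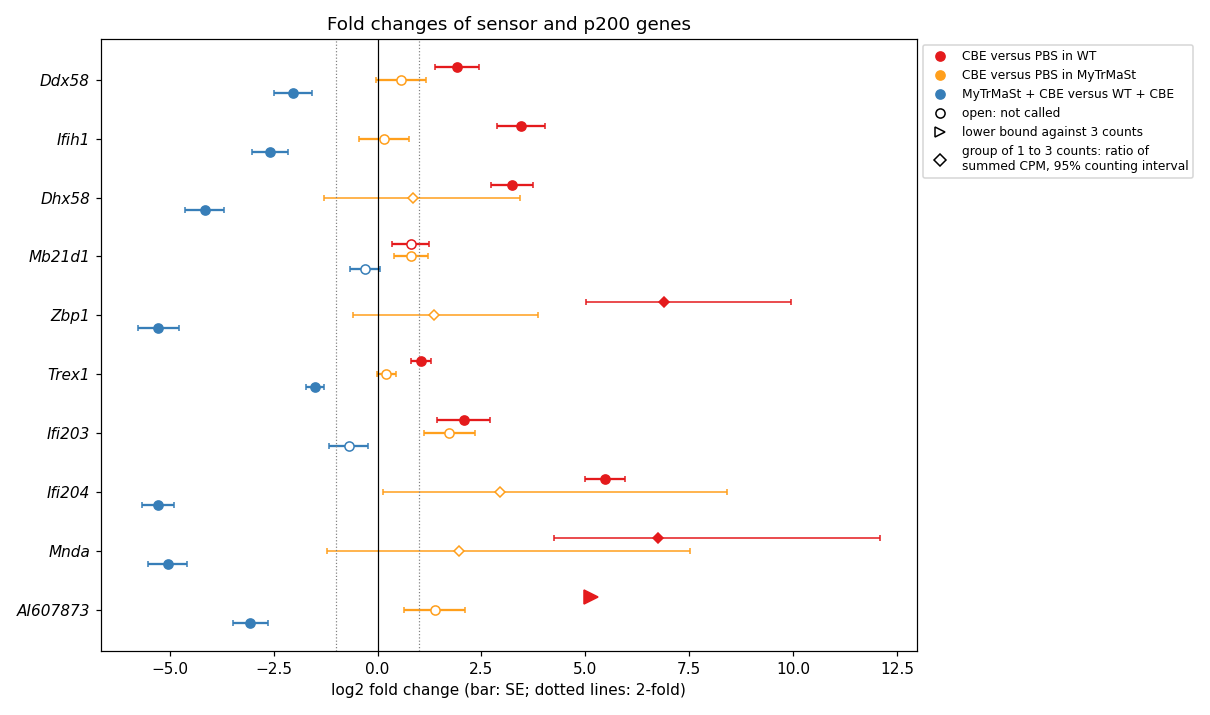
Log2 fold changes of the 10 genes for CBE versus PBS in WT (red) and in MyTrMaSt (orange) and for MyTrMaSt + CBE versus WT + CBE (blue), filled where called, with SE bars (circles). Where a group held 1 to 3 counts, diamonds give ratios of pooled counts, scaled to pooled library size, with 95% counting intervals. The key names these ratios summed CPM. Where a group held 0, a triangle gives a lower bound. In 9 genes the WT value is filled, no orange value is, and the blue values of Mb21d1 and Ifi203 are open.

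Ifi203 was the gene nearest to a call in MyTrMaSt mice. It had 2, 4 and 4 counts in MyTrMaSt + PBS and 6, 10, 16, 7 and 5 in MyTrMaSt + CBE, or 0.691, 1.06 and 1.41 CPM against 2.34, 3.76, 6.48, 3.45 and 1.96 CPM. Every CBE library was above every PBS library, which was so for 1 of the 10 genes and for 11.8% of all tested genes. The log2 difference was 1.73 ± 0.608 (adjusted p = 0.0914, edgeR). The gene was called when WT + PBS replicate 1 was left out of the fit (adjusted p = 0.039, over a range of 0.039 to 0.224 in the alternatives).

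The other p200 genes stayed at a few counts. Ifi204 had 0, 0 and 1 counts in MyTrMaSt + PBS and 3, 4, 0, 1 and 2 in MyTrMaSt + CBE. Its ratio of pooled counts, scaled to pooled library size, was 7.75 with a 95% counting interval of 1.10 to 336. AI607873 had 0, 3 and 3 counts against 8, 2, 5, 2 and 4 (log2 fold change 1.37 ± 0.725, adjusted p = 0.270, edgeR). Mnda had 0, 1 and 0 counts against 1, 0, 3, 0 and 1. In all 3 genes the groups overlapped.

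For the receptors and Mb21d1 the groups overlapped as well. Ddx58 had 3, 6 and 5 counts in MyTrMaSt + PBS and 5, 4, 5, 5 and 8 in MyTrMaSt + CBE, a log2 difference of 0.57 ± 0.608. Ifih1 had 2, 4 and 3 counts against 7, 2, 1, 1 and 2 (0.15 ± 0.597), and Dhx58 had 1 count in each PBS library and 2, 1, 2, 0 and 2 in the CBE libraries. Mb21d1 had 6, 8 and 7 counts against 10, 5, 16, 4 and 13, and its log2 fold change of 0.81 ± 0.397 was close to the 0.79 ± 0.440 in WT mice. In CPM the MyTrMaSt + CBE libraries of Mb21d1 ran from 1.88 to 6.48, on both sides of the 4.69 to 4.95 CPM of WT + CBE.

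Zbp1 had 0, 1 and 2 counts in MyTrMaSt + PBS and 1, 0, 2, 7 and 0 in MyTrMaSt + CBE, so that 7 of its 10 counts after CBE came from replicate 4. Trex1 had 58, 89 and 64 counts against 61, 85, 68, 35 and 68, or 20.03, 23.5 and 22.5 CPM against 23.8, 31.9, 27.6, 17.2 and 26.6 CPM. With these counts its estimate was the most precise of the 10, a log2 fold change of 0.21 ± 0.226 (adjusted p = 0.610, edgeR).

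The genotype by CBE interaction, the CBE effect in MyTrMaSt minus that in WT mice, tests the difference itself. It was negative for 9 of the 10 genes, with Mb21d1 at 0.011 ± 0.473 and below 0 with library totals, by DESeq2 and by limma voom, and the median was -2.72 on the log2 scale. None passed an adjusted p of 0.05 by edgeR (0 of 10, against 0.489% of all tested genes) or by limma voom, and DESeq2 called 1, AI607873. At an unadjusted p below 0.05 edgeR gave 4 of 10 (Ifih1, Zbp1, Trex1 and AI607873), against 12.5% of all tested genes. The interaction was -3.29 ± 0.908 (adjusted p = 0.161) for Ifih1 and -0.84 ± 0.330 (adjusted p = 0.331) for Trex1. Without MyTrMaSt + CBE replicate 1, the library with the most Ifih1, that of Ifih1 passed (-4.02, adjusted p = 0.0307, the lowest of its alternatives, which reached 0.475). For Ifi203 it was -0.34 ± 0.992, and it changed sign without WT + PBS replicate 3 (0.064) or WT + CBE replicate 3 (0.11). In other genes with few counts after PBS the SEs were large, at 2.33 for Ifi204, 2.45 for Mnda and 2.01 for Zbp1. They were 1.71 for AI607873 and 1.29 for Dhx58. That these genes did not pass the test does not show that the CBE effects of the lines were alike.

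Between the CBE groups, 8 of the 10 genes were lower in MyTrMaSt mice, all but Mb21d1 and Ifi203, against 1.93% of all tested genes called lower. For the same 8 genes every MyTrMaSt + CBE library was below every WT + CBE library, which held for 6.02% of all tested genes. The median log2 difference of the 10 genes was -2.83. Ifi204 (-5.28 ± 0.378, adjusted p = 3.11e-08), Zbp1 (-5.27 ± 0.495, adjusted p = 1.06e-06) and Mnda (-5.04 ± 0.470, adjusted p = 9.91e-07) differed most by edgeR, and Dhx58 followed at -4.15 ± 0.469 (adjusted p = 1.23e-05). Over the leave-one-out fits Ifi204 ran from -5.64 to -4.97, Zbp1 from -6.62 to -4.93 and Mnda from -5.90 to -4.73. The order of these 3 genes cannot be told.

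AI607873 (-3.06 ± 0.425, adjusted p = 0.000285), Ifih1 (-2.59 ± 0.431, adjusted p = 0.00109), Ddx58 (-2.02 ± 0.455, adjusted p = 0.0166) and Trex1 (-1.51 ± 0.210, adjusted p = 0.000164) differed less. The call of Ddx58 was lost without WT + CBE replicate 1 (-1.48), WT + CBE replicate 3 (-2.02) or MyTrMaSt + CBE replicate 2 (-1.91), and the other 7 calls held in every alternative in which the gene was tested. Mb21d1 (-0.31 ± 0.364, adjusted p = 0.99999) and Ifi203 (-0.70 ± 0.466, adjusted p = 0.897) did not pass the test by edgeR, and in both the groups overlapped. This comparison shares its WT + CBE and MyTrMaSt + CBE libraries with the CBE effects above.

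After PBS, none of the 10 genes was called between the lines (0 of 10 by edgeR, DESeq2 and limma voom, against 0.16% of all tested genes). With the PBS groups fitted alone only Trex1 passed the filter on low counts, so that for the other 9 genes the counts hardly allowed a call. At an unadjusted p below 0.05 edgeR gave 2 of 10, Trex1 and AI607873, against 16.8% of all tested genes. Trex1 was lower in each MyTrMaSt + PBS library than in each WT + PBS library, at 20.03 to 23.5 CPM against 24.9 to 52.3 CPM (-0.67 ± 0.253, adjusted p = 0.204, edgeR). Ifi204 was the other gene without overlap, with a total of 1 count against 5, and 10.1% of all tested genes were separated in that direction. AI607873 had 6 counts in MyTrMaSt + PBS and 0 in WT + PBS.

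The p200 counts were also split by gene. Of 514 p200 counts in WT + CBE, Ifi204 held 49.6%, Mnda 21.4%, AI607873 21.0% and Ifi203 7.98%. Ifi203 held 5.92% to 15.2% in single WT + CBE libraries, whereas in MyTrMaSt + CBE it held 55% of 80 counts, and 33.3% to 70% in single libraries. It also led in both PBS groups, with 62.5% of 16 counts and 55.6% of 18 counts, although single WT + PBS libraries ran from 0% to 75%. In WT + PBS this rested on replicate 2, without which Ifi203 had 1 count and Ifi204 had 3. The shares of Ifi203 in the MyTrMaSt + CBE libraries lay above those of all WT + CBE libraries. These shares were not tested.

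**Figure D3:**
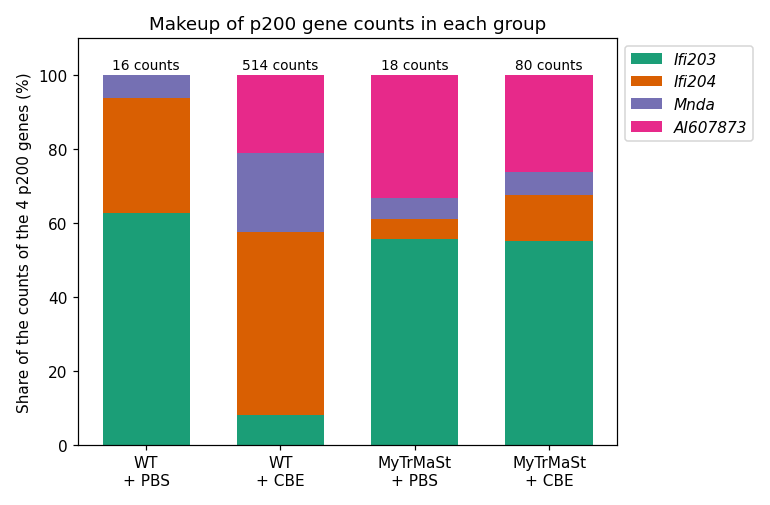
Share (%) of Ifi203, Ifi204, Mnda and AI607873 in the counts of these 4 p200 genes, summed over the libraries of each group, with the number of counts above each bar. Ifi204 holds the largest share in WT + CBE (49.6%) and Ifi203 in the other 3 groups, in WT + PBS through replicate 2 alone.

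The 3 other p200 genes that were listed, Ifi205, Mndal and Aim2, summed to 0.902 to 4.70 CPM in WT + PBS and 10.3 to 11.4 CPM in WT + CBE, and in each of them every WT + CBE library was above every WT + PBS library, as for 15.1% of all tested genes. Ifi205 had 2 to 6 counts in the WT + CBE libraries and 0 in all others, and Mndal had 7 to 14 in WT + CBE, 0 to 7 in WT + PBS and 2 to 7 in MyTrMaSt. Neither passed the filter on low counts. Aim2, whose protein starts an inflammasome on cytosolic DNA, was tested and stood at 0.902 to 2.95 CPM in WT + PBS and 4.66 to 5.63 CPM in WT + CBE. Its log2 difference of 0.99 ± 0.523 (adjusted p = 0.258, edgeR) did not pass the test.

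Microglial transcripts moved with the same groups. The summed level of 16 microglia markers was 794 to 1131 CPM after PBS and 4098 to 4720 CPM after CBE in WT mice, and 662 to 709 CPM and 2389 to 2652 CPM in MyTrMaSt mice. Of the 16 markers, 10 were called higher with CBE in WT mice (against 5.2% of all tested genes), 9 in MyTrMaSt mice (3.23%), and 3 were called lower in MyTrMaSt + CBE than in WT + CBE (1.93%). In bulk RNA, more cells of a type and more RNA per cell cannot be told apart. Of 12 monocyte and neutrophil markers 4 were listed and 2 tested, and of 14 lymphocyte markers 4 were listed and 1 tested. Markers of other brain cells were separated between the WT groups too. Summed over each list, 8 astrocyte markers stood at 2945 to 3517 CPM after PBS and 4049 to 4443 CPM after CBE, 10 neuron markers at 4578 to 5147 and 3882 to 4103 CPM, and 8 oligodendrocyte markers at 16927 to 20130 and 10320 to 13390 CPM, whereas 8 endothelial markers overlapped (253 to 338 and 254 to 306 CPM). In MyTrMaSt mice the astrocyte markers stood at 3437 to 3859 CPM after PBS and 4480 to 4853 CPM after CBE, and the neuron markers at 5175 to 6104 and 4259 to 5087 CPM. Both lists were thus separated by CBE in this line and higher in MyTrMaSt + CBE than in WT + CBE without overlap. The oligodendrocyte markers (16784 to 19962 and 12631 to 16805 CPM) and the endothelial markers (221 to 249.03 and 200 to 274 CPM) overlapped between PBS and CBE in this line. The listed monocyte and neutrophil markers summed in WT mice to 59.6 to 105 CPM after PBS and to 92.2 to 116 CPM after CBE, and in MyTrMaSt mice to 72.1 to 100.04 CPM, with Chil3 at 0 after PBS, and the listed lymphocyte markers to 3.87 to 15.3 CPM in all libraries.

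Levels of the sensor genes were also set against the microglia markers. In MyTrMaSt + CBE the summed level of the 4 p200 genes, 4.70 to 9.73 CPM, was above that in every PBS library (0.691 to 3.32 CPM), whereas that of the 3 receptors, 2.63 to 5.46 CPM, was within the 1.80 to 5.48 CPM of the PBS libraries. The 4 p200 genes together had a median of 1.45 CPM per 1000 CPM of microglia markers after PBS and 15.5 after CBE in WT mice. In MyTrMaSt mice the medians were 3.04 and 2.43, with ranges of 0.974 to 4.26 and 1.77 to 4.07, which overlapped. The 3 receptors together had 4.87 and 5.81 in WT mice and 4.18 and 1.36 in MyTrMaSt mice, with ranges of 1.60 to 6.30 and 4.58 to 7.15 in the WT groups, which overlapped. In MyTrMaSt mice they were lower after CBE than after PBS on this scale, at 1.06 to 2.14 against 2.92 to 4.79, without overlap.

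Mb21d1 and Trex1 went down on this scale in WT mice too. Mb21d1 had 1.60 to 4.17 CPM per 1000 CPM of microglia markers in WT + PBS and 1.05 to 1.15 in WT + CBE, and Trex1 28.6 to 46.3 against 15.3 to 17.5. In MyTrMaSt mice Mb21d1 had 2.92 to 3.73 after PBS and 0.758 to 2.71 after CBE, and Trex1 28.2 to 34.1 and 6.69 to 12.9. In WT mice Ddx58, Dhx58 and Ifi203 overlapped between PBS and CBE on this scale. Ifih1 (0 to 0.969 against 1.38 to 1.60), Zbp1 (0 to 0.798 against 6.64 to 8.86), Ifi204 (0.696 to 0.969 against 5.53 to 9.18), Mnda (0 to 0.348 against 2.86 to 3.64) and AI607873 (0 against 1.95 to 4.01) were higher in WT mice after CBE than after PBS on this scale, without overlap. The part of microglia and of the other cell types in these changes was not tested, and these ratios carry no test.

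**Figure D4:**
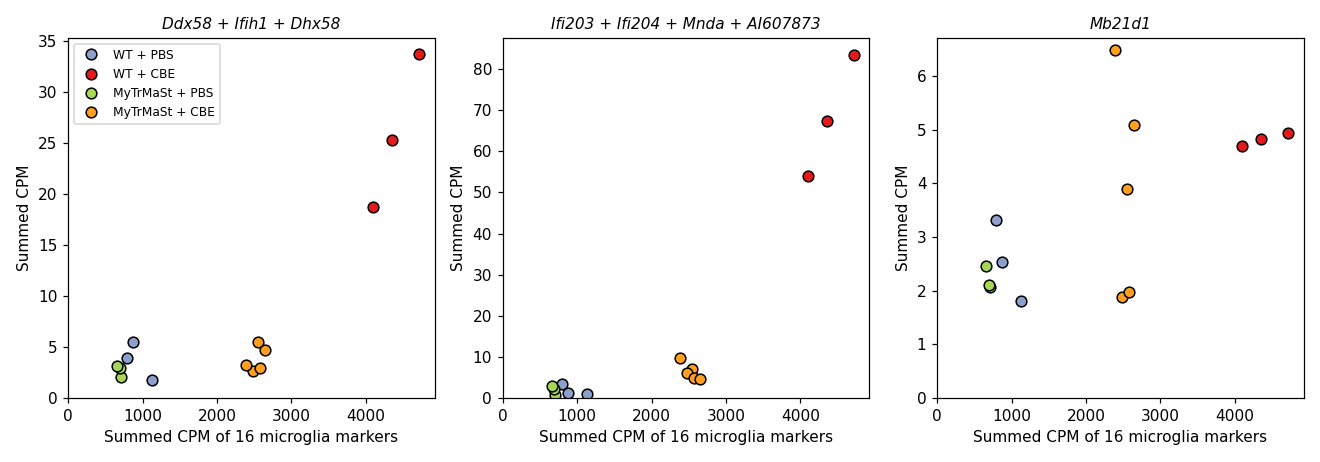
Summed CPM of the 3 RIG-I-like receptor genes (left), of the 4 p200 genes (middle) and of Mb21d1 (right) against the summed CPM of 16 microglia markers in each library (points, coloured by group). The MyTrMaSt + CBE libraries, at 2389 to 2652 CPM of markers, lie at the level of the PBS libraries for the receptors and between PBS and WT + CBE for the p200 genes, while for Mb21d1 they span the range of WT + CBE.

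Genes that act with these sensors were counted from lists of the same pathway. Of 16 tested genes for other sensors and cofactors of RIG-I and MDA5, 3 were called higher with CBE in WT mice, against 5.2% of all tested genes: Eif2ak2 (PKR, a kinase activated by double-stranded RNA; 2.49 ± 0.272), Zc3hav1 (3.35 ± 0.611) and Trim25 (1.94 ± 0.322), the last a ubiquitin ligase of RIG-I. All 3 were called lower in MyTrMaSt + CBE than in WT + CBE, against 1.93% of all tested genes. Eif2ak2 passed the interaction (-2.15 ± 0.383, adjusted p = 0.0111, edgeR), with 67 to 146 counts in WT + CBE and 4 to 32 in all other groups. In MyTrMaSt mice 1 of the 16 was called, Pcbp2 (1.01 ± 0.221), a share near the 3.23% of all tested genes.

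Of 14 tested genes downstream of the sensors, 3 were called higher in WT mice, Irf7, Tmem173 and Casp8, against 5.2% of all tested genes. In MyTrMaSt mice their log2 differences of 1.14 ± 0.530, 0.60 ± 0.267 and 0.09 ± 0.256 did not pass the test. Irf7, the interferon regulatory factor that amplifies interferon transcription, had 17 to 31 counts after PBS and 424 to 1063 after CBE in WT mice, against 3 to 10 and 4 to 17 in MyTrMaSt mice, and passed the interaction (-3.59 ± 0.730, adjusted p = 0.0317, edgeR). The kinase gene Tbk1 (0.26 ± 0.207) and the factor gene Irf3 (-0.085 ± 0.201) did not pass the test with CBE in WT mice.

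Of 12 tested genes for the type I interferon receptor and its transcription factors, 6 were called higher in WT mice (Stat2, Irf9, Irf1, Irf5, Irf8 and Usp18) and 2 in MyTrMaSt mice (Irf5 and Irf8), against 5.2% and 3.23% of all tested genes. Of these, 2 passed the interaction, Stat2 at -1.70 ± 0.271 (adjusted p = 0.00521) and Irf9 at -2.33 ± 0.343 (adjusted p = 0.0031), by edgeR, against 0.489% of all tested genes. Of 11 tested genes for clearance and editing of nucleic acids, Dnase2a, the lysosomal DNase, was called higher in both lines (2.62 ± 0.407 in WT and 2.06 ± 0.365 in MyTrMaSt mice), which is 1 of 11 against the same shares. Dnase2a thus passed the test in MyTrMaSt mice where Trex1 did not, and Samhd1 (0.64 ± 0.250, adjusted p = 0.115) did not pass it in WT mice.

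Over the 14 libraries, the genes were also described by the tested genes most like them in log2(CPM + 0.5), as Pearson correlations that share the 4 groups and carry no test. Nearest to Ifih1 was Eif2ak2 (r = 0.965), to Zbp1 Cxcl10 (0.959), to Dhx58 Gsdmd (0.961), to Trex1 Parp14 (0.969), to Ifi204 Phf11b (0.980) and to Mnda Irg1 (0.990). AI607873 (Cybb, 0.9503), Ddx58 (Hpse, 0.915) and Ifi203 (Lrrc8a, 0.920) had nearest genes of lower correlation, and Mb21d1 the lowest (Slco2b1, 0.893). Among the 10 genes the highest correlation was between Dhx58 and Trex1 (0.942) and the lowest between Ifi203 and Trex1 (0.326).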

How the data were processed

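Total RNA from the brains of 14 mice was used to make bulk MARSseq libraries, 1 per mouse. The authors trimmed reads with cutadapt, mapped them to mm10 with hisat and counted them with HTSeq, per the labels and the study's methods. Which annotation was used, and whether strand or molecular identifiers were, is not given in the sources used here. The deposited values are raw counts, and every listed gene has at least 6 counts in some library. A deposited table of normalized values and a table of the authors' own fold changes and p-values were not used.

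Counts were analysed with edgeR 4.0.16 in R 4.3.3. After the filterByExpr filter and TMM scaling, 1 quasi-likelihood fit with a mean per group took in all 14 libraries. Its contrasts gave CBE versus PBS in each line, MyTrMaSt versus WT after each treatment, and the interaction. Benjamini-Hochberg adjustment was over 11852 genes. A gene was called at an adjusted p below 0.05 and a 2-fold change (no fold for the interaction). SEs are the size of the log2 fold change divided by the root of its F value. Against a group with 0 counts the fold is a bound against 3 counts over the group. Against 1 to 3 counts it is the ratio of the groups' pooled counts, each over its pooled TMM-scaled library size, with its exact 95% interval. Intervals and floors cover counting error only. The fit was tested on simulated data.

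The 10 genes, the gene lists and the tests were chosen with earlier results of these data known. All 10 are named, together with called genes of the lists, and examples that were not called (Tbk1, Irf3, Samhd1) were chosen after their values were seen. For each of the 10 genes the tested gene with the highest correlation is named. Positions are from GENCODE for GRCm38 (mm10), and promoters from RefSeq GRCm38.p6. The alternatives were RLE factors, library totals, DESeq2 1.42.0, limma 3.58.1 voom, no filter, a mean count of at least 5, only the groups compared, a replicate block, Xist as a covariate, leaving out each library, and no fold threshold. Of the lists, 1 gene was left out and is not reported here.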

Additional observations from a re-analysis of the deposited data

Results flagged for a closer look

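In 2 genes a single MyTrMaSt + CBE library lay far above the other 4, by a gap test on the group's range. The test flags about 1 in 20 groups of normally distributed values by chance, and counts this low need not follow that rate. For Ifih1, replicate 1 (2.73 CPM, 7 counts) lay above the rest by 0.837 of the range. For Zbp1, replicate 4 (3.45 CPM, 7 counts) lay above the rest by 0.765 of the range. The critical value for 5 samples is 0.71. These were different libraries, and MyTrMaSt + CBE replicate 4 had 0 Xist counts.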

How the results depend on the processing

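The count of genes called by CBE in WT mice was 9 by edgeR with TMM and 6 to 9 in the other settings and in the leave-one-out fits. It was 6 with only the groups compared (9 genes tested). Between the CBE groups the count was 8, and 7 to 8 without each library. In MyTrMaSt mice 0 were called, and 0 to 1 without each library, with 1 (Ifi203) without WT + PBS replicate 1. In the interaction 0 were called, with 1 by DESeq2 (AI607873) and 0 to 1 without each library, 1 (Ifih1) without MyTrMaSt + CBE replicate 1. After PBS 0 were called in every setting. With only the groups compared, 2 genes were tested in MyTrMaSt mice and 1 after PBS. Signs turned for some values that did not pass the test. In MyTrMaSt mice Ifih1 was -0.0498 by limma voom and -0.58 to 0.35 without each library, lowest without MyTrMaSt + CBE replicate 1, and Zbp1 was -0.0926 to 2.14, lowest without MyTrMaSt + CBE replicate 4. The interaction of Mb21d1 was -0.0418 with library totals, -0.0127 by DESeq2, -0.14 by limma voom and -0.27 to 0.20 without each library. That of Ifi203 was 0.46 with the Xist covariate and -2.41 to 0.11 without each library, above 0 without WT + PBS replicate 3 or WT + CBE replicate 3. After PBS, Ddx58 was -1.01 to 0.25 without each library, highest without WT + PBS replicate 3, and Ifi203 was 0.0931 by limma voom and -0.77 to 1.71, highest without WT + PBS replicate 2. The cause was not tested. With the replicate number as a block, 8 genes were called in WT mice and 7 between the CBE groups, Ddx58 being lost in both. Same-numbered libraries correlated between -0.184 and 0.173, so the numbers were not taken as pairs. Depth limits the PBS groups, where 9 of the 10 genes had at most 12 counts in any library, and MyTrMaSt + CBE, where 7 had at most 8.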
